A study of Mus musculus with 24 samples.

Results

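The genes described here are 41 genes of proliferation and the cell cycle, measured in inguinal white fat, the subcutaneous fat pad of the groin, of male mice. They were listed by name, from cyclins and Cdk1 through replication and mitosis. No measured value of these genes enters the rule, but earlier results of these data were known when they were chosen. Each of the 41 symbols matched 1 of the 41388 genes in the count files, and all 41 were among the 19717 genes that passed the filter on low counts. The series holds 24 total RNA-seq libraries in 6 groups of 4. Both genotypes were MRflox/flox, that is, floxed at Nr3c2, which encodes the mineralocorticoid receptor, and FMRKO mice also had AdipoqCre, in which the promoter of adiponectin, a fat cell gene, drives Cre recombinase. Each genotype was labelled chow, high-fat diet (HFD) or corticosterone, the main glucocorticoid of the mouse. The sources used here do not give ages, corticosterone dose, vehicle or duration, or what the HFD held and how long it lasted, so both treatments were compared with chow. Cells of the pad that do not use the adiponectin promoter keep the receptor gene, and bulk RNA mixes all of them.

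A cell that divides passes through growth (G1), DNA replication (S), a second gap (G2) and mitosis (M), and cyclins bound to cyclin-dependent kinases drive each step. Genes of replication are switched on by E2F factors late in G1, and genes of mitosis, which the DREAM complex keeps off in resting cells, are switched on later by B-Myb and Foxm1 with the MuvB core of that complex, so that transcripts of each phase rise and fall together in a cycling cell. Mature fat cells rarely divide. The cycling cells of a fat pad are mainly fat cell progenitors, macrophages and other immune cells and endothelial cells, and an inguinal pad can also hold a lymph node.

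Total counts ran from 17925109 to 40427675 per library. Levels are given as CPM, counts scaled to library totals of 1 common size with TMM factors, always in the order of the library numbers: 1, 2, 4 and 5 in chow controls, 1, 2, 3 and 5 in chow FMRKO mice and 1 to 4 in the other groups. Fold changes are log2 values from edgeR's quasi-likelihood test over all 24 libraries with their standard error, and adjusted p-values (Benjamini-Hochberg, all 19717 genes) were held against a threshold of 0.05. Nr3c2, the targeted gene, was at 23.7, 17.6, 23.8 and 28.7 CPM in chow controls and 11.3, 22, 17.7 and 25.8 CPM in chow FMRKO mice. Its levels were lower in FMRKO mice under HFD (12.7 to 15.7 against 18.5 to 25 CPM) and on corticosterone (7.73 to 12.2 against 14.1 to 18.4 CPM), with no overlap in either, whereas the chow groups overlapped. None of these differences passed the adjusted threshold (log2 fold change averaged over the 3 conditions -0.49, adjusted p = 0.287). The labels do not say that the libraries of a group came from separate mice, so the spread behind the p-values may be technical.

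Several libraries stood apart. The summed level of 19 lymphocyte genes was 340 to 1340 CPM in 6 libraries (FMRKO 1 and 3 of chow, and controls 1 and 4 and FMRKO 1 and 4 of the HFD), called the lymph node libraries below, and 9.64 to 117 CPM in the other 18. The highest of those 18 were corticosterone FMRKO 2 and 3, at 117 and 102 CPM. Chow FMRKO 5, corticosterone control 2 and HFD control 3 were rich in skeletal muscle genes (summed level 13969, 2065 and 351 CPM, against 7.63 to 78 CPM in the other 21). Among the 41 genes themselves the library that stood apart was chow control 2, described further on. A running number stands before the group name in the titles of the 8 chow libraries and in 0 of the other 16, which number only the replicate. If that form marks a batch, it cannot be told apart from diet or corticosterone. Each comparison of the 41 genes is therefore given over all 24 libraries and over the 18 that remain without the lymph node libraries, which hold 4 chow controls, 2 chow FMRKO libraries, 2 of each genotype under HFD and all 8 with corticosterone. Cell type markers and genes outside the 41 are given over all 24 unless the 18 are named.

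**Figure D1:**
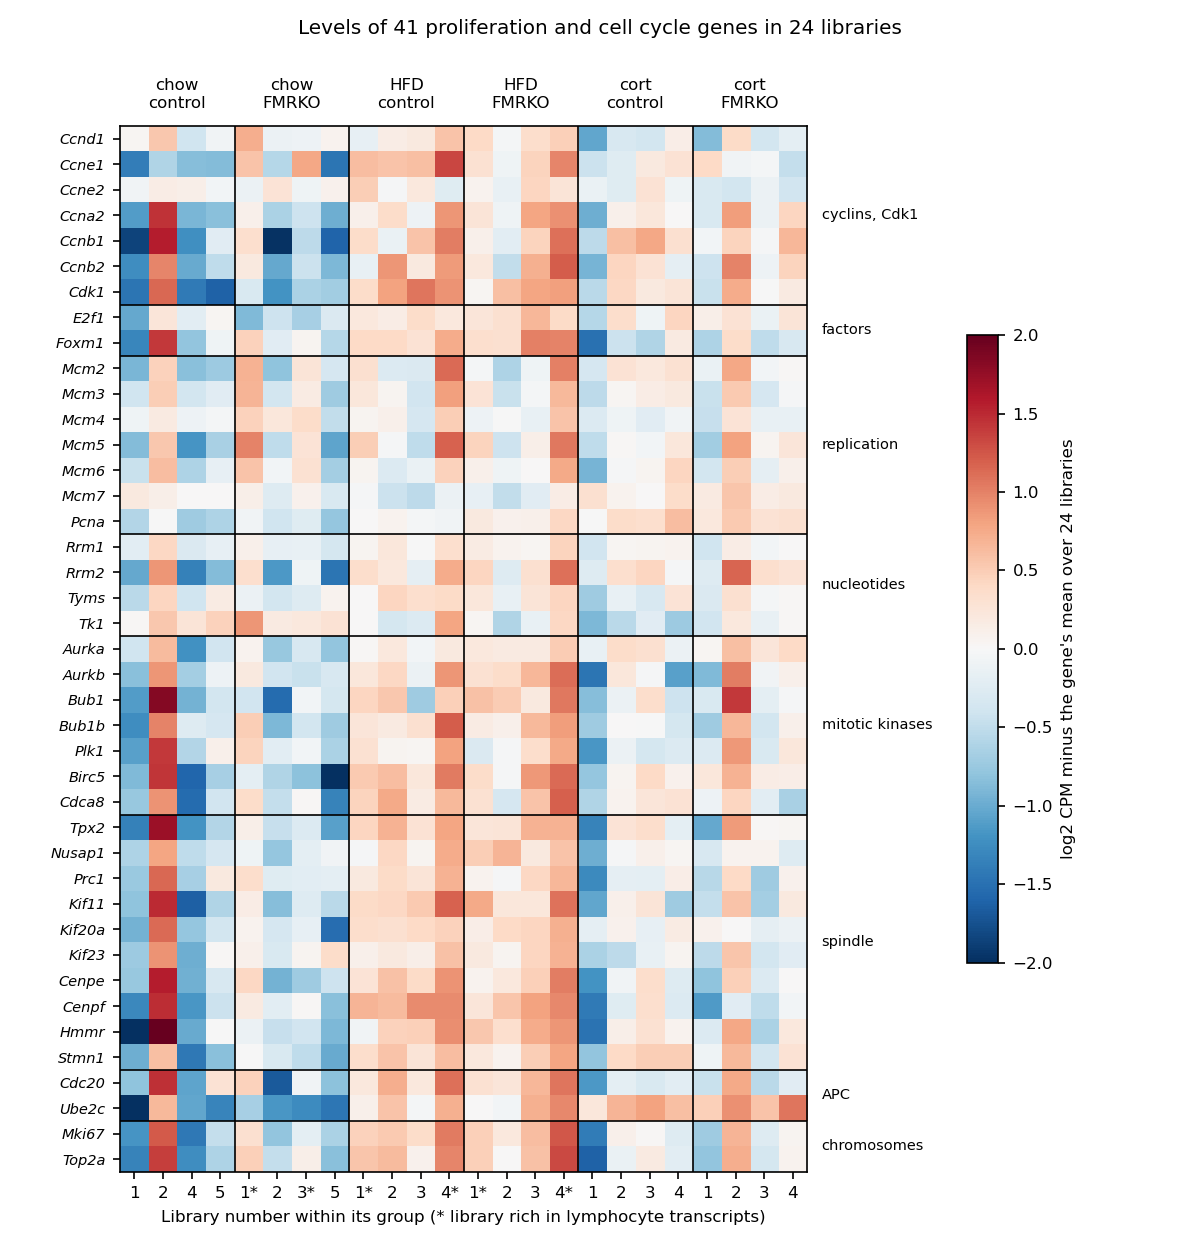
Each row is 1 of the 41 genes and each column 1 of the 24 libraries, grouped by diet or treatment (cort, corticosterone) and genotype, with lymph node libraries starred. Colour is log2 CPM minus the gene's mean over the 24 libraries, and values beyond 2 in either direction are drawn in the end colours. Chow control 2, the highest library for 19 of 41 genes, stands out beside the other 3 chow controls.

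Summed over the 41 genes, the level was 218, 531, 212 and 266 CPM in chow controls and 398, 248, 306 and 228 CPM in chow FMRKO mice. HFD controls summed to 363, 367, 330 and 494 CPM, and HFD FMRKO mice to 369, 314, 391 and 530 CPM. The corticosterone sums were 217, 331, 334 and 349 CPM for controls and 260, 457, 297 and 339 CPM for FMRKO mice. Chow control 2 was the highest of all 24 libraries, and apart from it and the 2 lymph node libraries the chow sums of 212 to 266 CPM lay below all 8 of the HFD. The corticosterone sums overlapped those of both chow and HFD. In bulk tissue, fewer cycling cells and less of these transcripts per cell cannot be told apart.

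Divided by gene length, the most abundant transcript was Pcna, the sliding clamp that holds DNA polymerases on their template, with a median of 14 CPM per kilobase (range 7.98 to 21 over 24 libraries). Ccnd1 (cyclin D1), Mcm7 and Mcm4 (helicase subunits) and Rrm1 (large subunit of ribonucleotide reductase) followed at medians of 6.04, 5.54, 4.28 and 4.28 CPM per kilobase. The ranges of neighbours among these 5 overlapped. By contrast, Mki67, the gene of the Ki-67 protein that coats mitotic chromosomes, was 2nd by CPM and 10th per kilobase, at a median of 2.86 CPM per kilobase. The mitotic genes Ccnb2, Plk1, Aurka and Top2a had medians of 1.59, 1.35, 1.13 and 1.24 CPM per kilobase. Over all members with mitotic roles the medians ran from 0.197 (Bub1) to 3.17 (Stmn1) CPM per kilobase. The same 5 genes led the order over the 18 libraries without lymph node.

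Promoter windows from RefSeq of 300 bases (250 before the start of transcription and 50 after it, build GRCm38.p6) matched 32 of the 41 genes, in 34 entries. Ccnd1, Ccne2, Ccna2, Foxm1, Mcm4, Aurkb, Tpx2, Kif20a and Stmn1 had no entry. The cell cycle genes homology region (CHR, searched as TTTGAA on either strand) is the element that DREAM, B-Myb and Foxm1 complexes use at mitotic genes. It was in 17 of the 34 entries (50%), against 17.9% of all 32851 windows. The CCAAT box, bound by NF-Y and also searched on either strand, was in 28 of 34 (82.4%), against 37.4% of all windows, and both were in 50% of member entries and 6.95% of all windows. An E2F site, searched as TTTCGCGC, TTTGGCGC, TTTCCCGC or TTTGCCGC on either strand, was in 5 of 34 (14.7%), against 2.26% of all windows. By role, a CHR was in 5 of 7 spindle, kinetochore and cytokinesis genes, 4 of 6 mitotic kinase and checkpoint genes and 1 of 6 replication genes. An E2F site was in 4 of those 6 replication genes (Mcm3, Mcm5, Mcm6 and 1 of the 2 windows of Mcm7) and in Cdk1. The 2 windows of Prc1 overlap, so the entries are not independent, and a match describes letters in a window and not a bound site.

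The following 4 promoter stretches are shown because they show the motifs counted above, CHR in 3 mitotic genes and E2F in a replication gene, in lower case with CCAAT boxes (or ATTGG on this strand), CHR elements (or TTCAAA) and E2F sites in capitals. The first is Ube2c at chr2:164769691-164769915 on the plus strand, positions -238 to -14 from the start of transcription, with 6 CCAAT boxes (2 of them overlapping) and 1 CHR. The others lie on the minus strand, Mki67 at chr7:135716462-135716577 (positions -198 to -83, 3 CCAAT boxes and 2 CHR), Top2a at chr11:99024197-99024426 (positions -237 to -8, 6 CCAAT boxes and 2 CHR) and Mcm7 at chr5:138172031-138172058 (positions -175 to -148, only the upstream of its 2 E2F sites, with its flanks). Mcm7 has 2 windows: the one shown in part also holds 3 CCAAT boxes, and the other holds 1 CCAAT box and 0 E2F sites. All 6 replication genes with an entry had at least 1 CCAAT box, so the CCAAT box does not separate these roles. Starts are those of RefSeq. The Mcm7 site and the 3′ end of the Ube2c stretch lie within the first exon of the longest annotated models of these genes.
Ube2c: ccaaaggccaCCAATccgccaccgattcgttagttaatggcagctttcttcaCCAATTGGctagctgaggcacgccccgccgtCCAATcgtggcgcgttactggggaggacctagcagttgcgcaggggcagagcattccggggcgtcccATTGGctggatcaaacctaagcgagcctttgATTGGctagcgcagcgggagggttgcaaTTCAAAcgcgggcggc
Mki67: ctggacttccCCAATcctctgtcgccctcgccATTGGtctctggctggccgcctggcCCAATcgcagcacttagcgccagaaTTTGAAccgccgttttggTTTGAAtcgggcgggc
Top2a: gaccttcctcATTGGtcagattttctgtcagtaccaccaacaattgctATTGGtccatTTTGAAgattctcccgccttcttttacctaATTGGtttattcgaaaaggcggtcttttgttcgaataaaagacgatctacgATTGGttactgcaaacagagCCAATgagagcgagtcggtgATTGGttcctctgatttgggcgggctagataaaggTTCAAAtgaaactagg
Mcm7: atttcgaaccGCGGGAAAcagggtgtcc

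Chow control 2 held more of nearly all the genes than the other chow controls. It was the highest of the 4 chow controls for 40 of 41 genes (the exception was Mcm7) and the highest of all 24 libraries for 19 of 41. Its level divided by the mean of the other 3 chow controls had a median of 3.17 over the 41 genes and ran from 1.03 to 7.3. The ratio was largest for genes of mitosis, with medians of 4.95 for Mki67 and Top2a and 4.1 for the 10 spindle, kinetochore and cytokinesis genes, and smaller for the 7 replication genes (1.77) and the 4 genes of nucleotide supply (1.57). The same library had the highest summed macrophage markers of all 24 (2907 CPM, against 719 to 2038 in the other chow controls, with 12 of 15 markers highest of the 4). Its summed stromal fibroblast markers were also the highest of the 4 (17338 against 6091 to 14187 CPM), but 6 of 13 were highest there and their median ratio to the other 3 was 1.03. It had the lowest adipocyte markers of the 4 (10796 against 13589 to 21222 CPM, 0 of 8 highest). Its lymphocyte markers were at 45 CPM, against 23.9 to 31.9 CPM. The part of these markers in its levels was not tested.

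Most roles were somewhat higher in lymph node libraries. In chow FMRKO mice the mean of the 2 lymph node libraries divided by that of the other 2 had a median of 1.54 over the 41 genes, and by role the medians ran from 1.17 for the 2 transcription factors to 1.71 for the 7 replication genes, 1.84 for Mki67 and Top2a and 1.97 for Cdc20 and Ube2c. Within the HFD, the 4 lymph node libraries against the other 4 gave a median of 1.19 over all 41, from 0.997 for the transcription factors to 1.38 for Mki67 and Top2a and 1.4 for the replication genes. The lymph node libraries were picked by lymphocyte markers, so these ratios are a description of them.

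**Figure D2:**
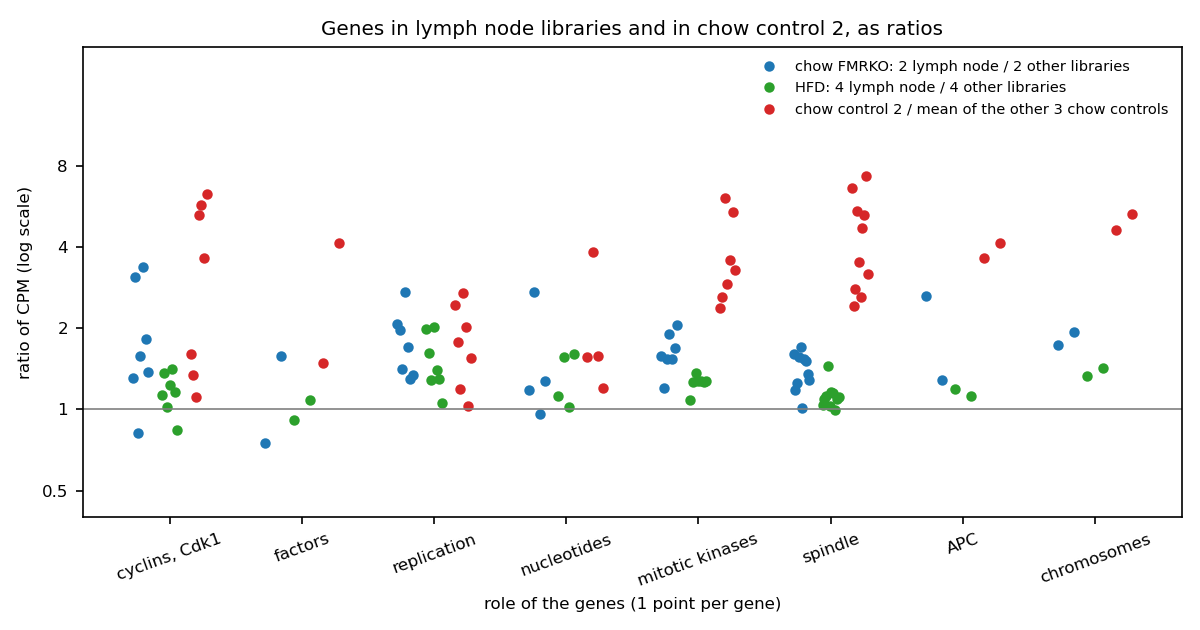
Each point is 1 of the 41 genes, placed by its role on the horizontal axis, and the vertical axis is a ratio of CPM on a log scale: lymph node against other libraries within chow FMRKO mice (blue) or the HFD (green), or chow control 2 against the mean of the other 3 chow controls (red). Red points run from 1.03 to 7.3 and sit highest for mitotic genes, whereas the lymph node ratios have medians of 1.54 and 1.19.

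Under HFD, few of the genes passed the test over all 24 libraries, although most stood above chow. In control mice 2 of 41 rose, Ccne1 and Pcna (4.88%, against 15.3% of all genes tested), and 0 fell (against 13.9%). In FMRKO mice 4 of 41 rose, Pcna, E2f1, Ube2c and Birc5 (9.76%, against 15.2%), and 0 fell (against 9.18%). The fitted change was above 0 for 37 of 41 genes in controls and 38 of 41 in FMRKO mice, with medians of 0.33 and 0.76 where the medians of all genes were 0.01 and -0.06. Without the lymph node libraries the counts were 1 higher and 2 lower in controls (17.5% and 11.3% of all genes) and 2 higher and 0 lower in FMRKO mice (13.8% and 7.28%), with medians of 0.23 and 0.97. At an unadjusted p under 0.05, 6 and 10 of 41 genes passed over all libraries (14.6% and 24.4%, against 40.6% and 35.2% of all genes). Of 19 lymphocyte genes 16 rose in controls over all libraries and 0 without the lymph node libraries. Those libraries were picked by lymphocyte markers, so this drop follows from the choice. Of 8 endothelial markers 3 rose in controls and 4 in FMRKO mice (summed level 756 to 1251 CPM, against 606 to 998 CPM on chow), of 8 adipocyte markers 2 rose in each, and of 15 macrophage markers 3 fell in controls. Summed macrophage markers were at 1070 to 1554 CPM in HFD controls (chow 719 to 2907) and 1253 to 1760 CPM in HFD FMRKO mice (chow 1058 to 1306). The 13 stromal fibroblast markers summed to 4941 to 9133 CPM in HFD controls (chow 6091 to 17338) and 7188 to 8969 CPM in HFD FMRKO mice (chow 5580 to 9469). The part of these markers in the changes of the 41 genes was not tested.

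Among the cyclins, Ccne1 (ENSMUSG00000002068, GRCm38 chromosome 7, 38097984 to 38107534, minus strand), cyclin E1, the partner of Cdk2 at the start of S phase, had the largest change that passed the test in control mice. It was at 1.29, 2.23, 1.86 and 1.85 CPM in chow controls and 4.99, 2.26, 5.76 and 1.22 CPM in chow FMRKO mice. Ccne1 under HFD was at 5.18, 4.99, 5.14 and 8.53 CPM in HFD controls and 4.15, 3.18, 4.58 and 6.62 CPM in HFD FMRKO mice. With corticosterone Ccne1 was at 2.51, 2.86, 3.88 and 4.11 CPM in corticosterone controls and 4.42, 3.22, 3.29 and 2.43 CPM in corticosterone FMRKO mice. All 4 HFD controls were above all 4 chow controls, as were all 4 corticosterone controls, while chow FMRKO 1 and 3, both lymph node libraries, reached the HFD range. The share of all genes whose groups separate in this way was not counted, for this or any other gene named. By edgeR's unadjusted p under 0.05, 40.6% and 50.7% of all genes passed in these comparisons, so separation alone does not set a gene apart. The change was 1.72 ± 0.37 (SE), adjusted p = 0.001 in controls and 0.37 ± 0.35 (SE), adjusted p = 0.485 in FMRKO mice. Without the lymph node libraries both rose (1.52 ± 0.29 (SE), adjusted p = 0.001, and 1.17 ± 0.36 (SE), adjusted p = 0.030), and the rise in controls stayed past the threshold in all 33 alternatives tried (adjusted p from 2.5e-05 to 0.011). Many of the alternatives, here and for the genes below, leave out a single library of a group outside the comparison. Such a library enters a comparison only through scaling, the filter on low counts and the shared error estimate. With corticosterone Ccne1 did not pass over all libraries (0.88 ± 0.36 (SE), adjusted p = 0.054 in controls and -0.10 ± 0.35 (SE), adjusted p = 0.845 in FMRKO mice) and rose over the 18 (0.94 ± 0.25 (SE), adjusted p = 0.006, and 0.98 ± 0.32 (SE), adjusted p = 0.027). Ccne2 (cyclin E2), the other E-type cyclin, stayed between 4.3 and 7.16 CPM under HFD and 4.69 and 6.15 CPM on chow.

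Ccnd1 (ENSMUSG00000070348, GRCm38 chromosome 7, 144929931 to 144939869, minus strand), cyclin D1, which links growth signals to Cdk4 and Cdk6 in G1, was at 23.8, 33.8, 17.6 and 22.1 CPM in chow controls and 38.5, 21.5, 21.7 and 24.4 CPM in chow FMRKO mice. Ccnd1 under HFD was at 20.7, 25.8, 26.5 and 34.6 CPM in HFD controls and 30.5, 22.5, 29.5 and 32.3 CPM in HFD FMRKO mice. With corticosterone Ccnd1 was at 11.3, 18.7, 18.1 and 25.4 CPM in corticosterone controls and 12.8, 30.4, 18 and 20.3 CPM in corticosterone FMRKO mice. All 6 groups overlapped, and Ccnd1 passed no test over 24 or 18 libraries, with values over 24 of 0.14 and 0.11 under HFD and -0.41 and -0.38 with corticosterone in controls and FMRKO mice.

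Ccnb1 (ENSMUSG00000041431, GRCm38 chromosome 13, 100778650 to 100786570, minus strand), cyclin B1, which with Cdk1 starts mitosis, was low throughout, at 0.514, 5.49, 0.79 and 1.58 CPM in chow controls and 2.34, 0.467, 1.29 and 0.608 CPM in chow FMRKO mice. Ccnb1 under HFD was at 2.39, 1.68, 2.75 and 3.74 CPM in HFD controls and 1.97, 1.59, 2.51 and 3.96 CPM in HFD FMRKO mice. With corticosterone Ccnb1 was at 1.29, 2.81, 3.14 and 2.31 CPM in corticosterone controls and 1.77, 2.52, 1.82 and 2.93 CPM in corticosterone FMRKO mice. Chow control 2 had the highest of all these values and chow FMRKO 2 the lowest, and the groups overlapped. The changes over all libraries did not pass the test. Without the lymph node libraries the rise with corticosterone in FMRKO mice did, at the threshold (2.12 ± 0.79 (SE), adjusted p = 0.050), and that under HFD did not (1.95 ± 0.86 (SE), adjusted p = 0.124). A named pseudogene of Ccnb1 may share reads with it. Cdk1, the kinase itself, was at 0.748 to 1.87 CPM in the 7 chow libraries other than chow control 2 (5.13 CPM) and at 2.36 to 4.83 CPM under HFD, with changes of 1.07 ± 0.46 (SE), adjusted p = 0.086 in controls and 1.26 ± 0.47 (SE), adjusted p = 0.056 in FMRKO mice.

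E2f1 (ENSMUSG00000027490, GRCm38 chromosome 2, 154559407 to 154569892, minus strand), a transcription factor that switches on S phase genes, was at 4.98, 11.9, 8.72 and 10.3 CPM in chow controls and 5.47, 7.56, 6.37 and 8.21 CPM in chow FMRKO mice. E2f1 under HFD was at 11.6, 11.2, 13 and 11.7 CPM in HFD controls and 11.9, 12.6, 15.9 and 13.1 CPM in HFD FMRKO mice. With corticosterone E2f1 was at 6.77, 12.8, 9.53 and 13.6 CPM in corticosterone controls and 10.9, 12.3, 9.2 and 12 CPM in corticosterone FMRKO mice. In FMRKO mice all 4 libraries of each treatment were above all 4 chow libraries, while in controls the groups overlapped. E2f1 rose in FMRKO mice by 0.96 ± 0.22 (SE), adjusted p = 0.003 under HFD and 0.69 ± 0.22 (SE), adjusted p = 0.018 with corticosterone, and in controls the changes were 0.40 ± 0.22 (SE), adjusted p = 0.179 and 0.25 ± 0.22 (SE), adjusted p = 0.379. Over the 18 libraries neither passed (0.87 ± 0.34 (SE), adjusted p = 0.083, and 0.54 ± 0.30 (SE), adjusted p = 0.180). Foxm1, a factor of the mitotic genes, passed no test over all libraries and was highest in chow control 2, at 12.6 CPM against 1.93 to 6.53 CPM in the other 7 chow libraries.

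**Figure D3:**
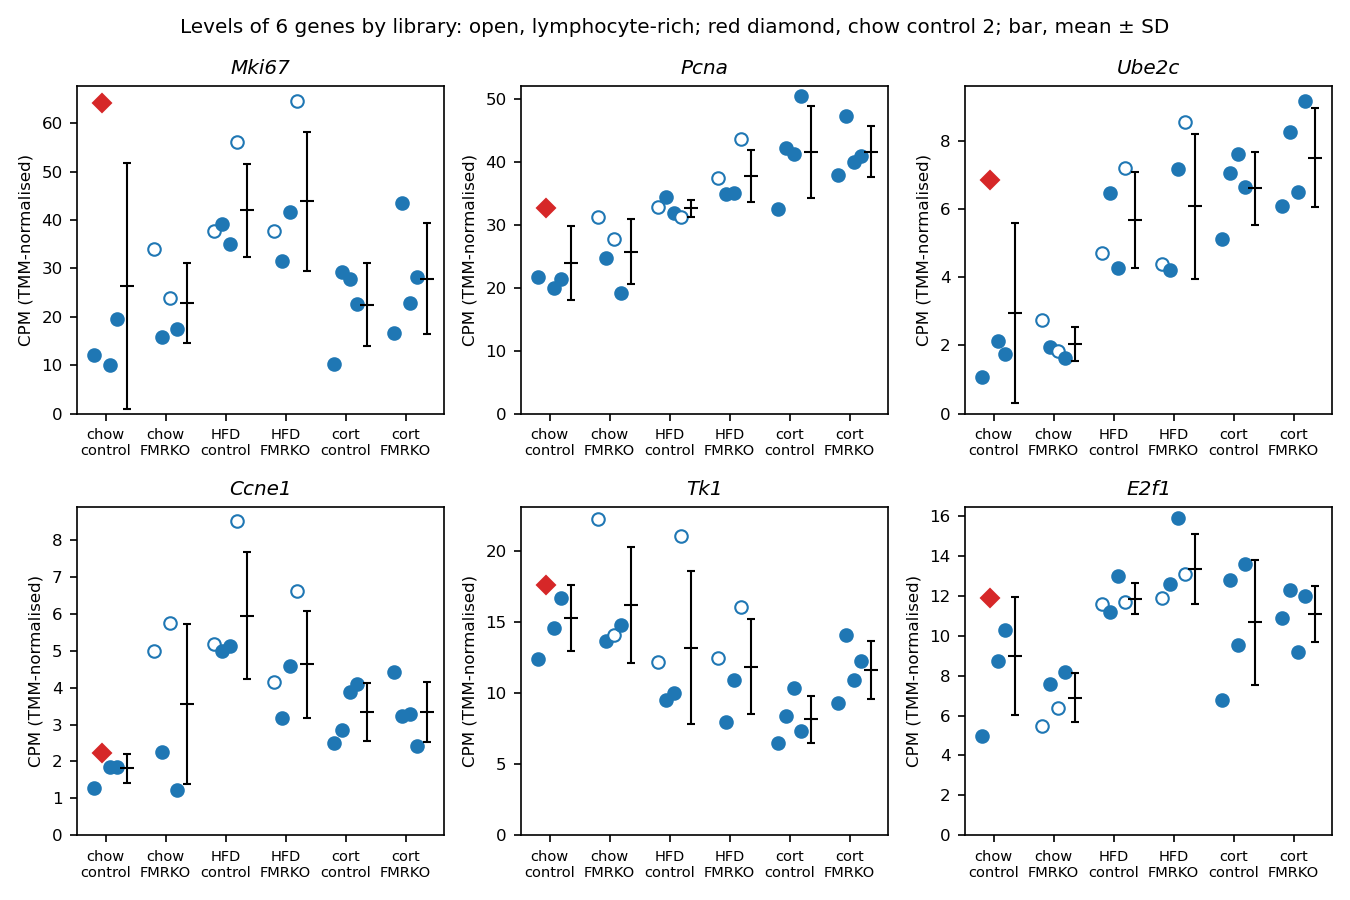
Each panel shows the CPM of 1 gene (vertical axis, from 0) in the 4 libraries of each of the 6 groups, with open circles for lymph node libraries, a red diamond for chow control 2 and a bar for the mean ± SD (n = 4). Ube2c is higher in all treated libraries than in all chow libraries but chow control 2, Ccne1 is high in the open circles of chow FMRKO mice, and Tk1 is lowest in corticosterone controls.

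Pcna (ENSMUSG00000027342, GRCm38 chromosome 2, 132249162 to 132253314, minus strand) was the member that passed the test in all 4 treatment comparisons. Pcna was at 21.8, 32.7, 20 and 21.4 CPM in chow controls and 31.3, 24.8, 27.8 and 19.1 CPM in chow FMRKO mice. Pcna under HFD was at 32.9, 34.5, 31.9 and 31.3 CPM in HFD controls and 37.4, 34.9, 35.1 and 43.7 CPM in HFD FMRKO mice. With corticosterone Pcna was at 32.5, 42.3, 41.3 and 50.5 CPM in corticosterone controls and 38, 47.4, 40.1 and 41 CPM in corticosterone FMRKO mice. In FMRKO mice both treated groups were above all chow libraries, and in controls only chow control 2, at 32.7 CPM, overlapped the treated groups. The rise under HFD was 0.45 ± 0.16 (SE), adjusted p = 0.036 in controls and 0.55 ± 0.16 (SE), adjusted p = 0.013 in FMRKO mice. With corticosterone it was 0.80 ± 0.16 (SE), adjusted p = 3.8e-04 in controls and 0.69 ± 0.16 (SE), adjusted p = 0.002 in FMRKO mice, and both calls held in all 33 alternatives. The call under HFD in controls was lost in 24 of 33 alternatives (adjusted p from 0.003 to 0.151), among them the 18 libraries (0.50 ± 0.19 (SE), adjusted p = 0.056). Without any 1 HFD FMRKO library, outside this comparison, the change was 0.42 (adjusted p from 0.055 to 0.067). Pcna has 2 named pseudogenes, which may share reads with it.

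The 6 MCM genes encode the ring-shaped helicase that opens DNA at replication forks. Mcm2 (ENSMUSG00000002870, GRCm38 chromosome 6, 88883475 to 88898780, minus strand) was at 4.82, 12.5, 5.09 and 5.5 CPM in chow controls and 14.7, 5.18, 10.9 and 7.19 CPM in chow FMRKO mice. Mcm2 under HFD was at 11.3, 7.51, 7.4 and 20 CPM in HFD controls and 8.83, 5.93, 8.6 and 18.2 CPM in HFD FMRKO mice. With corticosterone Mcm2 was at 7.24, 11.1, 10.5 and 11.2 CPM in corticosterone controls and 8.28, 15.5, 8.73 and 9.25 CPM in corticosterone FMRKO mice. The highest values were in HFD control 4 and FMRKO 4 and in chow FMRKO 1, all lymph node libraries, and in corticosterone FMRKO 2. All groups overlapped and Mcm2 passed no test (0.72 ± 0.40 (SE), adjusted p = 0.182 under HFD in controls, and 0.12 ± 0.36 (SE), adjusted p = 0.828 without the lymph node libraries).

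Mcm7 (ENSMUSG00000029730, GRCm38 chromosome 5, 138164583 to 138172422, minus strand), another subunit of the ring, was at 27.3, 25.8, 24 and 23.9 CPM in chow controls and 25.9, 20, 25.4 and 19.3 CPM in chow FMRKO mice. Mcm7 under HFD was at 23.5, 17.7, 16.6 and 21.9 CPM in HFD controls and 21.3, 16.9, 20.4 and 26.4 CPM in HFD FMRKO mice. With corticosterone Mcm7 was at 29.6, 25.1, 24 and 30.7 CPM in corticosterone controls and 27, 34.9, 26.3 and 27.3 CPM in corticosterone FMRKO mice. All 4 HFD controls were below all 4 chow controls, and all 4 corticosterone FMRKO libraries were above all 4 chow FMRKO libraries. Over all libraries these changes missed the threshold (-0.34 ± 0.14 (SE), adjusted p = 0.075, and 0.35 ± 0.14 (SE), adjusted p = 0.055). Without the lymph node libraries Mcm7 fell under HFD in controls (-0.52 ± 0.14 (SE), adjusted p = 0.008) and rose with corticosterone in FMRKO mice (0.60 ± 0.14 (SE), adjusted p = 0.003). Mcm7 overlaps Cops6 and Ap4m1 on the opposite strand, and the sources used here do not say whether the counting used strand. Mcm3, Mcm4, Mcm5 and Mcm6 passed no test over all libraries or over the 18.

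Of the genes of nucleotide supply, Tk1 (ENSMUSG00000025574, GRCm38 chromosome 11, 117815526 to 117826092, minus strand), the thymidine kinase of S phase, was the only one of the 41 to fall over all libraries. It was at 12.4, 17.6, 14.6 and 16.7 CPM in chow controls and 22.3, 13.7, 14.1 and 14.8 CPM in chow FMRKO mice. Tk1 under HFD was at 12.2, 9.54, 10 and 21.1 CPM in HFD controls and 12.5, 8, 10.9 and 16.1 CPM in HFD FMRKO mice. With corticosterone Tk1 was at 6.52, 8.37, 10.4 and 7.31 CPM in corticosterone controls and 9.28, 14.1, 10.9 and 12.3 CPM in corticosterone FMRKO mice. Corticosterone controls were all below chow controls, whereas the other treated groups overlapped chow. Tk1 fell with corticosterone in controls (-0.91 ± 0.25 (SE), adjusted p = 0.005), a call that held in all 33 alternatives, and did not pass in FMRKO mice (-0.48 ± 0.24 (SE), adjusted p = 0.119). Under HFD in controls Tk1 did not pass over all libraries (-0.21 ± 0.24 (SE), adjusted p = 0.543) and fell without the lymph node libraries (-0.61 ± 0.20 (SE), adjusted p = 0.033). Tk1 overlaps Afmid and Gm20708 on the opposite strand.

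Rrm2 (ENSMUSG00000020649, GRCm38 chromosome 12, 24708241 to 24714146, plus strand), the subunit of ribonucleotide reductase that rises in S phase, was at 2.76, 10.3, 2.21 and 3.08 CPM in chow controls and 7.11, 2.53, 5.3 and 2.03 CPM in chow FMRKO mice. Rrm2 under HFD was at 7.16, 6.49, 4.97 and 9.39 CPM in HFD controls and 7.56, 4.69, 7 and 12 CPM in HFD FMRKO mice. With corticosterone Rrm2 was at 4.7, 7.09, 7.55 and 5.52 CPM in corticosterone controls and 4.68, 12.6, 7.11 and 6.78 CPM in corticosterone FMRKO mice. Its chow values were 2.03 to 7.11 CPM outside chow control 2, and the treated groups overlapped chow over all libraries. Of the fits over 24 and 18 libraries, Rrm2 passed only in the second and with corticosterone in FMRKO mice (1.82 ± 0.57 (SE), adjusted p = 0.023, against 0.87 ± 0.45 (SE), adjusted p = 0.131 over all 24). Rrm1 and Tyms, the thymidylate synthase, passed no test in either, with ranges of 12.6 to 22.6 and 3.51 to 7.77 CPM over the 24 libraries.

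Of the genes of mitotic chromosomes, Mki67 (ENSMUSG00000031004, GRCm38 chromosome 7, 135689788 to 135716379, minus strand) was at 12, 64.1, 10.1 and 19.5 CPM in chow controls and 34, 15.8, 23.8 and 17.5 CPM in chow FMRKO mice. Mki67 under HFD was at 37.7, 39.1, 35.1 and 56.2 CPM in HFD controls and 37.8, 31.6, 41.6 and 64.5 CPM in HFD FMRKO mice. With corticosterone Mki67 was at 10.3, 29.3, 27.7 and 22.7 CPM in corticosterone controls and 16.7, 43.6, 22.9 and 28.3 CPM in corticosterone FMRKO mice. Apart from chow control 2 and the lymph node library chow FMRKO 1, all chow libraries were below all 8 HFD libraries, and the corticosterone libraries overlapped both. The changes under HFD did not pass the test (0.67 ± 0.46 (SE), adjusted p = 0.291 in controls and 0.94 ± 0.46 (SE), adjusted p = 0.152 in FMRKO mice), nor did they over the 18 libraries (0.52 ± 0.59 (SE), adjusted p = 0.544, and 1.16 ± 0.71 (SE), adjusted p = 0.276). Without chow control 2 the change in controls was 1.59 ± 0.39 (SE), adjusted p = 0.005. That library was singled out by the levels of these same genes, so the value only shows dependence on 1 library.

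Top2a (ENSMUSG00000020914, GRCm38 chromosome 11, 98992943 to 99024189, minus strand), the topoisomerase that untangles sister DNA strands, was at 4.21, 27.5, 4.5 and 6.91 CPM in chow controls and 14.7, 7.63, 11.5 and 5.93 CPM in chow FMRKO mice. Top2a under HFD was at 15.6, 16.5, 11.3 and 20.8 CPM in HFD controls and 14.7, 10.7, 15.9 and 26.4 CPM in HFD FMRKO mice. With corticosterone Top2a was at 3.44, 9.71, 12 and 9.2 CPM in corticosterone controls and 6.15, 17.6, 8.32 and 11.1 CPM in corticosterone FMRKO mice. Chow control 2 and HFD FMRKO 4 were the highest 2 libraries for both Top2a and Mki67, and the lowest for Top2a was corticosterone control 1, at 3.44 CPM. All groups overlapped. Top2a passed no test over all libraries (0.57 ± 0.51 (SE), adjusted p = 0.418 in controls and 0.76 ± 0.51 (SE), adjusted p = 0.305 in FMRKO mice under HFD). Without chow control 2, singled out by the same genes, it was at 1.62 ± 0.43 (SE), adjusted p = 0.009 in controls, which only shows dependence on that library.

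Ube2c (ENSMUSG00000001403, GRCm38 chromosome 2, 164769898 to 164778822, plus strand), the enzyme that hands ubiquitin to the anaphase-promoting complex, was at 1.06, 6.85, 2.13 and 1.76 CPM in chow controls and 2.76, 1.95, 1.84 and 1.62 CPM in chow FMRKO mice. Ube2c under HFD was at 4.73, 6.49, 4.27 and 7.22 CPM in HFD controls and 4.4, 4.21, 7.17 and 8.57 CPM in HFD FMRKO mice. With corticosterone Ube2c was at 5.13, 7.06, 7.63 and 6.67 CPM in corticosterone controls and 6.11, 8.26, 6.52 and 9.18 CPM in corticosterone FMRKO mice. Apart from chow control 2, all chow libraries were at or below 2.76 CPM and all 16 treated libraries at or above 4.21 CPM. The rise was 1.16 ± 0.39 (SE), adjusted p = 0.022 in controls and 1.87 ± 0.40 (SE), adjusted p = 0.001 in FMRKO mice with corticosterone, and 1.57 ± 0.40 (SE), adjusted p = 0.007 in FMRKO mice under HFD, while in controls under HFD the change did not pass (0.94 ± 0.39 (SE), adjusted p = 0.078). The call with corticosterone in FMRKO mice held in all 33 alternatives, and that under HFD in FMRKO mice was lost over the 18 libraries (1.69 ± 0.62 (SE), adjusted p = 0.066). In controls with corticosterone it was lost without chow control 1, 4 or 5 (adjusted p = 0.064, 0.066 and 0.081), without corticosterone control 3 (0.055) and without the 3 muscle libraries (0.052). Ube2c overlaps the muscle gene Tnnc2 on the opposite strand, and Tnnc2 was at 0 to 0.507 CPM. It was at only 0.507 CPM in chow FMRKO 5, where the muscle genes Tnnt3 and Mylpf were at 914 and 487 CPM. The count of Tnnc2 therefore does not show how many muscle reads fell at this locus, and the effect of the overlap on Ube2c was not tested. Cdc20, which activates the same complex, was at 0.896 to 3.93 CPM in the 7 other chow libraries, 3.3 to 6.13 CPM under HFD and 1.29 to 4.86 CPM with corticosterone, and passed no test over all libraries or over the 18.

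Among mitotic kinases and checkpoint genes, Aurka (ENSMUSG00000027496, GRCm38 chromosome 2, 172356190 to 172370535, minus strand), the kinase of the spindle poles, was at 1.99, 4.1, 1.14 and 2.03 CPM in chow controls and 2.76, 1.56, 2.1 and 1.52 CPM in chow FMRKO mice. Aurka under HFD was at 2.67, 3.05, 2.54 and 3.03 CPM in HFD controls and 3.06, 2.97, 2.98 and 3.74 CPM in HFD FMRKO mice. With corticosterone Aurka was at 2.37, 3.41, 3.3 and 2.44 CPM in corticosterone controls and 2.72, 3.98, 3.12 and 3.46 CPM in corticosterone FMRKO mice. In FMRKO mice all HFD libraries were above all chow libraries, and with corticosterone only chow FMRKO 1, at 2.76 CPM, was above the lowest treated value of 2.72 CPM. Aurka rose with corticosterone in FMRKO mice (0.73 ± 0.28 (SE), adjusted p = 0.038, and 1.16 ± 0.38 (SE), adjusted p = 0.028 over the 18 libraries), a call lost in 24 of 33 alternatives (adjusted p up to 0.143), most of which leave out 1 library. Many of those libraries are outside this comparison. Without any 1 HFD library or corticosterone control Aurka was at 0.71 (adjusted p from 0.054 to 0.059). Birc5 (survivin, of the chromosomal passenger complex) was at 0.355 to 1.65 CPM in the 7 other chow libraries and at 1.85 to 4.14 CPM under HFD, and it rose in FMRKO mice (1.44 ± 0.50 (SE), adjusted p = 0.041), a call lost in 23 of 33 alternatives, among them the 18 libraries (1.72 ± 0.80 (SE), adjusted p = 0.146). Without any 1 HFD or corticosterone control, outside this comparison, Birc5 was at 1.39 (adjusted p from 0.052 to 0.061). The other 5 of these genes (Aurkb, Bub1, Bub1b, Plk1 and Cdca8) and the 10 spindle, kinetochore and cytokinesis genes passed no test over all libraries or over the 18. Hmmr, a spindle-associated protein, had the widest ratio of chow control 2 to the other chow controls, 7.3, and Stmn1, which destabilises microtubules, had changes under HFD of 0.88 ± 0.36 (SE), adjusted p = 0.068 in controls and 0.83 ± 0.36 (SE), adjusted p = 0.101 in FMRKO mice.

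**Figure D4:**
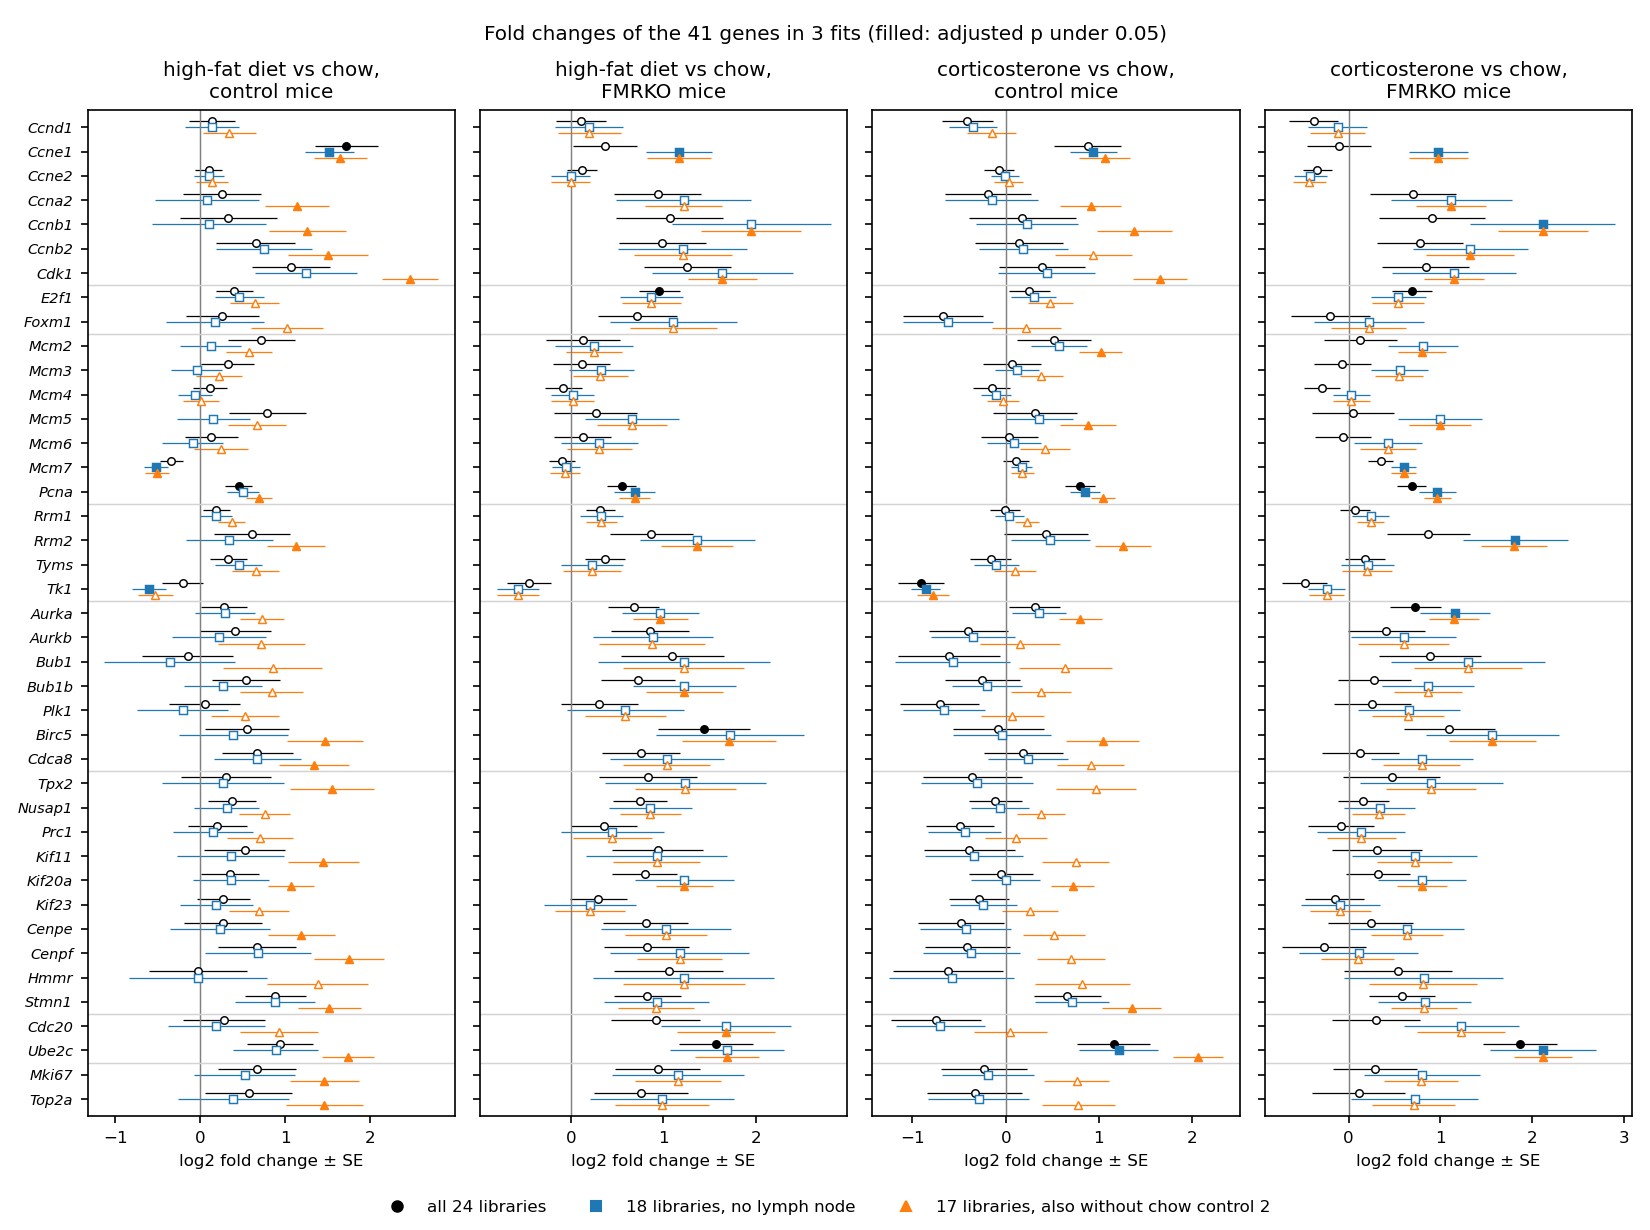
Log2 fold changes ± SE (horizontal axis) of the 41 genes (rows, ordered by role) in the 4 treatment comparisons, fitted over all 24 libraries (black circles), over 18 libraries without lymph node (blue squares) and over 17 that also leave out chow control 2 (orange triangles). Filled symbols passed an adjusted p of 0.05, and in both comparisons of control mice the triangles of mitotic genes lie to the right of the other symbols.

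With corticosterone, too, few of the genes passed the test over all libraries. In controls 2 of 41 rose, Pcna and Ube2c (4.88%, against 20.2% of all genes tested), and 1 fell, Tk1 (2.44%, against 22.7%), with 16 of 41 changes above 0 and a median of -0.11, where the median of all genes was -0.12. In FMRKO mice 4 of 41 rose, Pcna, E2f1, Ube2c and Aurka (9.76%, against 20.2%), and 0 fell (against 20.9%), with 30 of 41 above 0 and a median of 0.28, where the median of all genes was -0.11. At an unadjusted p under 0.05, 4 and 6 genes passed (9.76% and 14.6%, against 50.7% and 50% of all genes). Without the lymph node libraries 3 rose and 1 fell in controls (24.7% and 23.4% of all genes), and in FMRKO mice 7 rose (17.1%, against 19.1%) and 0 fell (against 14.6%), with a median of 0.80. Those 7 were Pcna, Ube2c, Aurka, Mcm7, Ccne1, Ccnb1 and Rrm2, and without corticosterone FMRKO 2 and 3 as well Pcna, Ube2c and Mcm7 rose (7.32%, against 15.3% of all genes), while Aurka, Ccne1, Ccnb1 and Rrm2 did not pass. Of 19 lymphocyte genes 10 fell in FMRKO mice over all libraries and 0 over the 18, which follows from picking the lymph node libraries by lymphocyte markers.

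Markers of several cell types moved with corticosterone. Over all libraries 10 of 13 stromal fibroblast markers fell and 1 rose in controls, 7 fell and 1 rose in FMRKO mice, and their summed level was 2611 to 5793 CPM with corticosterone against 5580 to 17338 CPM on chow. Of 8 endothelial markers 7 fell in controls and 5 in FMRKO mice (489 to 632 against 606 to 998 CPM). Of 15 macrophage markers 0 rose in controls (1479 to 2354 against 719 to 2907 CPM) and 10 in FMRKO mice (1910 to 2651 against 1058 to 1306 CPM). The chow controls ranged more widely, with chow control 2 at 2907 CPM, so these counts do not show a difference between genotypes. Of 8 adipocyte markers 5 rose in both genotypes (25629 to 30827 against 10649 to 21222 CPM). Of all genes 20.2% rose in each genotype, and 22.7% fell in controls and 20.9% in FMRKO mice. The defining markers Pdgfra and Adgre1 were not at 0 in any library. The part of these markers in the changes of the 41 genes was not tested.

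Both comparisons of control mice rest heavily on chow control 2. Without it 25 of 41 genes rose under HFD in controls (61%, against 12.8% of all genes) and 10 with corticosterone (24.4%, against 20.2%), with medians of 1.09 and 0.68. The counts in FMRKO mice, which share the error estimate but not this library, became 10 under HFD (against 13.7%) and 6 with corticosterone (against 19.9%). Leaving out the lymph node libraries as well, a setting chosen after the values were seen, gave 18 and 13 genes higher in controls (17.9% and 24.1% of all genes) and 11 and 14 in FMRKO mice (15.5% and 20.6%). In that setting Cdk1 was at 2.47 ± 0.33 (SE), adjusted p = 8.3e-05 under HFD in controls, and Mki67 at 1.46 ± 0.41 (SE), adjusted p = 0.014. Because the library was singled out by the levels of the same genes, these counts show how far the result depends on 1 library and do not stand in place of the values over all libraries. Leaving out any other single library gave 1 or 2 genes higher in controls under HFD and 1 to 3 with corticosterone. In FMRKO mice it gave 2 to 6 under HFD, with 2 without HFD FMRKO 1 or 4, and 3 to 6 with corticosterone.

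Between FMRKO and control mice, none of the 41 genes passed the adjusted threshold in any comparison or alternative tried. Over all libraries edgeR called 0 of 41 on chow (0.0101% of all genes were called in either direction), 0 under HFD (0.0101%), 0 with corticosterone (0.00507%) and 0 averaged over the 3 conditions (0.0355%). The interaction of genotype with HFD and that with corticosterone, both against chow, each had 0 calls among the 41 and among all genes (0% each). At an unadjusted p under 0.05 the 6 counts were 1, 0, 1, 0, 1 and 0 of 41 (of all genes 11.9%, 3.96%, 4.28%, 6.66%, 9.83% and 5.94% passed), and DESeq2 called 0 in each. The median change of the 41 genes was -0.22 on chow, 0.03 under HFD and 0.18 with corticosterone. For Mki67 the averaged FMRKO difference was 0.05 ± 0.27 (SE), adjusted p = 0.986, and for Pcna it was 0.10 ± 0.09 (SE), adjusted p = 0.879. On chow the median was -0.59 without the lymph node libraries and 0.39 without chow control 2, so its direction depended on which libraries were kept.

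Other genes of the cycle, from lists drawn up by function, changed in both directions. Of 11 inhibitors of cyclin-dependent kinases and pocket proteins, 3 rose and 1 fell under HFD in controls, 2 rose and 3 fell in FMRKO mice, 4 rose and 1 fell with corticosterone in controls, and 5 rose and 1 fell in FMRKO mice. The shares that rose were 27.3%, 18.2%, 36.4% and 45.5%, against 15.3%, 15.2%, 20.2% and 20.2% of all genes. The shares that fell were 9.09%, 27.3%, 9.09% and 9.09%, against 13.9%, 9.18%, 22.7% and 20.9%. Cdkn1a, the gene of p21, which blocks Cdk2, was at 27.3, 38.8, 32.6 and 17.3 CPM in chow controls, 91.8, 92.5, 74.4 and 49.9 CPM in HFD controls and 189, 203, 152 and 120 CPM in corticosterone controls. In FMRKO mice Cdkn1a was at 31.5, 23.9, 29.6 and 14.5 CPM on chow, 111, 135, 114 and 63.1 CPM under HFD and 210, 212, 170 and 224 CPM with corticosterone. The groups did not overlap in either genotype. Cdkn1a rose by 1.41 ± 0.27 (SE), adjusted p = 6.3e-04 and 2.08 ± 0.28 (SE), adjusted p = 1.9e-05 under HFD and by 2.51 ± 0.28 (SE), adjusted p = 1.1e-06 and 3.03 ± 0.29 (SE), adjusted p = 2.3e-07 with corticosterone, in controls and FMRKO mice. Cdkn2b, the gene of p15, which blocks Cdk4 and Cdk6, rose in the same 4 comparisons, by 1.26, 1.17, 1.79 and 1.99. Cdkn1b, the gene of p27, fell under HFD in FMRKO mice over all libraries (-0.40 ± 0.14 (SE), adjusted p = 0.042) but not over the 18 (-0.37 ± 0.13 (SE), adjusted p = 0.063), and in controls it passed only over the 18 (-0.26 ± 0.14 (SE), adjusted p = 0.176, and -0.43 ± 0.12 (SE), adjusted p = 0.012). With corticosterone it was at -0.15 and -0.32 and did not pass. Cdkn1c, the gene of p57, fell under HFD (-1.38 ± 0.19 (SE), adjusted p = 1.8e-05 in controls and -0.65 ± 0.18 (SE), adjusted p = 0.013 in FMRKO mice) and rose with corticosterone in FMRKO mice (0.89 ± 0.18 (SE), adjusted p = 7.5e-04). The calls on Cdkn1a, Cdkn2b and Cdkn1c over all libraries also held over the 18 libraries, and in controls Cdkn1c was at 0.36 ± 0.18 (SE), adjusted p = 0.116 with corticosterone over all libraries and 0.42 ± 0.14 (SE), adjusted p = 0.023 over the 18.

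Of 9 other G1 cyclins and kinases, 3 rose and 1 fell under HFD in each genotype over all 24 libraries, and with corticosterone 4 rose and 2 fell in controls and 3 rose and 1 fell in FMRKO mice. The shares that rose, 33.3%, 33.3%, 44.4% and 33.3%, stand against 15.3%, 15.2%, 20.2% and 20.2% of all genes in the same 4 comparisons. Ccnd3 (cyclin D3) rose by 0.50 ± 0.09 (SE), adjusted p = 3.6e-04 and 0.46 ± 0.09 (SE), adjusted p = 8.1e-04 under HFD and by 0.60 ± 0.09 (SE), adjusted p = 3.1e-05 and 0.62 ± 0.09 (SE), adjusted p = 2.6e-05 with corticosterone, in controls and FMRKO mice, and Ccnd2 (cyclin D2) by 0.40, 0.40, 0.98 and 0.89. Of 15 E2F, Myb and DREAM factors, 1 rose and 1 fell in each HFD comparison, and with corticosterone 4 rose and 1 fell in controls and 2 rose and 2 fell in FMRKO mice, so 6.67%, 6.67%, 26.7% and 13.3% rose. E2f7, a repressor of the family, fell with corticosterone (-1.43 ± 0.19 (SE), adjusted p = 8.3e-06 in controls and -0.77 ± 0.19 (SE), adjusted p = 0.003 in FMRKO mice). Of 26 genes of origin licensing and DNA synthesis, 5 rose and 3 fell under HFD in controls and 4 rose and 0 fell in FMRKO mice, with Cdc45, which travels with the helicase, at 0.90 ± 0.17 (SE), adjusted p = 4.0e-04 and 1.00 ± 0.17 (SE), adjusted p = 1.6e-04. With corticosterone 4 rose and 2 fell in controls and 4 rose and 1 fell in FMRKO mice. The shares that rose were 19.2%, 15.4%, 15.4% and 15.4%, above the share of all genes under HFD in controls (15.3%), close to it in FMRKO mice (15.2%) and below it with corticosterone (20.2% in each genotype). Among them with corticosterone was Orc6, of the origin recognition complex (0.76 ± 0.14 (SE), adjusted p = 1.5e-04, and 0.78 ± 0.14 (SE), adjusted p = 1.5e-04). Of 33 further genes of mitosis and checkpoints, 2 rose and 0 fell under HFD in controls and 3 rose and 1 fell in FMRKO mice, with Spc25, of the kinetochore, at 2.34 ± 0.42 (SE), adjusted p = 3.1e-04 and 1.96 ± 0.42 (SE), adjusted p = 0.002. With corticosterone 2 rose and 3 fell in controls and 4 rose and 1 fell in FMRKO mice, and Cdc25b, a phosphatase that activates Cdk1, fell in both (-0.80 ± 0.16 (SE), adjusted p = 5.9e-04, and -0.81 ± 0.16 (SE), adjusted p = 6.2e-04). The shares of these 33 that rose, 6.06%, 9.09%, 6.06% and 12.1%, were below those of all genes in all 4 comparisons.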

How the data were processed

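RNA of inguinal fat was measured in 24 libraries, grouped by the genotype and treatment in their labels. Per the submitters' processing notes, the aligner was STAR (2.5.1a), the counter featureCounts (1.4.6p-5, Subread) and the build GRCm38. The sources used here do not give the annotation release, the strand setting or the handling of multiply mapped reads. Of the 41 genes 12 overlap another gene on the opposite strand, among them Ccnd1 (with LTO1) and Cdc20 (with Elovl1). The authors deposited raw counts per gene beside CPM values (counts scaled to library totals of 1 common size) and RPKM values (CPM per kilobase of gene length). The counts as deposited were the basis of every test, with total counts of 17925109 to 40427675 per library. The deposited CPM and RPKM values were used to learn how the files were made, and the CPM printed here were recomputed from the counts with TMM scaling.

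Genes passed filterByExpr with a minimum count of 10, which left 19717 of 41388. edgeR 4.0.16 (R 4.3.3, quasi-likelihood test, 1 mean per group over all 24 libraries, 18 residual degrees of freedom) gave fold changes and Benjamini-Hochberg adjusted p-values over all genes tested. The biological coefficient of variation was 34%. The alternatives were DESeq2 1.42.0, RLE scaling, no count filter, removal of lymph node or muscle libraries or of each library in turn, a lymphocyte score as a covariate and a replicate block. Leaving out chow control 2 together with the lymph node libraries was added after seeing the data. The script was tested on simulated data.

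The 41 genes, the other gene lists and the lymph node libraries were chosen with earlier results of these data known. Values in every library are printed for Mki67, Top2a, Ccnd1, Mcm2 and Pcna and for the 8 further members with the smallest adjusted p without the lymph node libraries, among those past the threshold there or over all libraries. Other members are given by range or count, with the fold change where they passed, and Cdk1, Foxm1, Ccne2, Cdc20, Rrm1, Tyms, Hmmr and Stmn1 were picked for mention after their values were seen. Of genes outside the 41, the rule named Cdkn1a, Cdkn1b, Cdkn1c, Ccnd2 and Ccnd3 and up to 3 genes per list and comparison with the smallest adjusted p.

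Same-numbered control and FMRKO libraries deviated together under HFD (r of 0.2, 0.55, 0.55 and 0.72), as paired libraries would, but not on chow (-0.28 to 0.11) or with corticosterone (-0.04 to 0.08). Under HFD, numbers 1 and 4 are lymph node libraries in both genotypes, so pairing and shared lymph node content cannot be told apart. The main test used no pairing, and the replicate block was an alternative. No 2 libraries of the same group agreed within sampling noise, and pairs from different groups were not checked.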

Additional observations from a re-analysis of the deposited data

Results flagged for a closer look

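In a group of 4 libraries, a value was singled out when its gap to the nearest other, divided by the range of the group, was above the critical value of Dixon's test, which chance gives in about 5% of groups. Over the 41 genes and 6 groups this held for 36 of 246 combinations, and 17 of the 36 were chow control 2. Among the genes given in every library, chow control 2 stood apart from the other chow controls for Pcna (32.7 CPM), Mcm2 (12.5 CPM), Rrm2 (10.3 CPM) and Top2a (27.5 CPM), and for the sum over the 41 genes (531 CPM).

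Chow FMRKO 1, a lymph node library, stood above its group for Ccnd1 (38.5 CPM) and Tk1 (22.3 CPM). Lymph node libraries of the HFD stood above theirs for Ccne1 (8.53 CPM in control 4) and Aurka (3.74 CPM in FMRKO 4). Corticosterone FMRKO 2, the library of its group with the most lymphocyte markers, stood above the others for Mcm2 (15.5 CPM) and Mcm7 (34.9 CPM). Corticosterone control 1 stood below its group for the sum over the 41 genes (217 CPM).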

How the results depend on the processing

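Of the 41 genes, 2 rose under HFD in controls, and 1 without the count filter, without the lymph node libraries (also when corticosterone FMRKO 2 and 3 were left out too), without the muscle libraries, with the lymphocyte covariate or with the replicate block. The count was 18 without the lymph node libraries and chow control 2, and 1 to 25 with 1 library left out (25 without chow control 2). The number that fell there was 0, and 2 without the lymph node libraries (with or without corticosterone FMRKO 2 and 3) or with the covariate, 1 without chow control 2 as well, and 0 to 1 with 1 library left out. In FMRKO mice 4 rose, against 2 without the lymph node libraries (with or without corticosterone FMRKO 2 and 3) or the muscle libraries, 11 without chow control 2 as well, 8 with the covariate and 2 to 10 with 1 library left out. With corticosterone 2 rose in controls, against 13 without the lymph node libraries and chow control 2, 4 with the covariate and 1 to 10 with 1 library left out. In FMRKO mice 4 rose, against 7 without the lymph node libraries, 14 without chow control 2 as well and 10 with the covariate, and 0 fell, against 1 without the muscle libraries. DESeq2 gave 3, 5, 3 and 4 higher. The replicate block gave 1, 3, 2 and 3 higher, and the comparisons of genotype had 0 calls with and without it. Mki67 with corticosterone in controls (-0.23) turned to 0.76 without the lymph node libraries and chow control 2, to 0.02 with the covariate, and to 0.74 and 0.01 without chow control 2 or corticosterone control 1 (-0.50 to 0.74 with 1 library left out). Top2a there (-0.33) turned to 0.78 and 0.76 without chow control 2, with the lymph node libraries left out or kept (-0.60 to 0.76 with 1 library left out). Ccne1 in FMRKO mice (-0.10) turned to 0.98 without the lymph node libraries (1.02 without corticosterone FMRKO 2 and 3, 0.98 without chow control 2), to 0.49 with the covariate and to 0.14 and 0.23 without chow FMRKO 1 or 3 (-0.38 to 0.23). Mki67 there (0.29) turned to -0.03 without corticosterone FMRKO 2 (-0.03 to 0.58), and Top2a (0.11) to -0.10 without the muscle libraries, -0.24 with the replicate block and -0.06 and -0.24 without chow FMRKO 5 or corticosterone FMRKO 2 (-0.24 to 0.39). Where libraries were left out, the fit held fewer libraries and the number of genes tested changed. It was 20005 without the lymph node libraries, 20122 without chow control 2, 19838 without both and 19717 over all libraries. The cause of the other changes was not tested.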

Other observations

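Histone genes of the Hist1 and Hist2 clusters, whose transcripts accumulate in S phase and mostly lack a poly(A) tail, were measured in these total RNA libraries and were looked at after the values of the 41 genes were known. Of 63 such genes 52 were tested, and near-identical copies make the split between single genes uncertain. Their summed level was 525 to 1148 CPM on chow, 844 to 1208 CPM with corticosterone and 965 to 1801 CPM under HFD. Under HFD 21 rose and 1 fell in controls (median log2 fold change 1.18) and 9 rose and 1 fell in FMRKO mice (1.02) by edgeR's adjusted p. The shares that rose, 40.4% and 17.3%, stand against 15.3% and 15.2% of all genes. With corticosterone 10 rose in controls (0.25) and 5 in FMRKO mice (0.16), or 19.2% and 9.62%, against 20.2% of all genes in each. Without the lymph node libraries the counts that rose were 10, 23, 11 and 16 in the same order, and without chow control 2 they were 41, 12, 14 and 5. These are 19.2%, 44.2%, 21.2% and 30.8% (all genes 17.5%, 13.8%, 24.7% and 19.1%) and 78.8%, 23.1%, 26.9% and 9.62% (all genes 12.8%, 13.7%, 20.2% and 19.9%).

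Ube2c and Cdc20 act on the same complex. The level of Ube2c divided by that of Cdc20, both in CPM, was 0.506 to 2.17 in the 8 chow libraries, 1.7 to 3.97 with corticosterone and 1.18 to 1.58 under HFD. In chow control 2 it was 0.87. The HFD range lies within that of chow, the corticosterone range overlaps it, and the ratio was not tested. Cdc20 overlaps Elovl1 on the opposite strand, as Ube2c does Tnnc2, and the effect of these overlaps on the ratio was not tested.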
